A study of Mus musculus with 9 samples.

Results

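The comparison set mouse embryos that had received pronuclear transfer, at either of the timings used, against embryos that had received a sham procedure. It uses all 9 libraries of the series, 6 from transferred embryos and 3 from sham embryos, and describes what the early and the later transfer have in common against sham. The transfer libraries are EPN A, B and C (early transfer) and LPN A, B and C (later transfer), and the sham libraries are SPN A, B and C, which served as control. Each library holds the poly(A) RNA of 3 embryos pooled at 34 h after fertilization. The labels give B6D2F1 mice, a hybrid strain, with females of 8 to 12 weeks as oocyte donors. No other strain, allele or agent distinguishes the groups. The treatment text also describes the removal of the germinal vesicle from oocytes to make abnormal cytoplasts, and does not say in which libraries such cytoplasts were used. Nothing says whether the pools came from separate days or matings, so every p-value here measures only the spread between these libraries, which may be technical.

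Pronuclear transfer lifts the pronuclei of a zygote, with a little surrounding cytoplasm, into a cytoplast whose own nuclei were removed. After fertilization the mouse embryo lives at first on RNA stored by the oocyte. Around the 2-cell stage that store is degraded while the embryonic genome is switched on, beginning with a burst of genes such as the Zscan4, Usp17l, Tdpoz and Eif1ad families and followed by genes for ribosome assembly, splicing, translation and protein turnover. Transcript levels at this time therefore depend on how much maternal RNA is left and how far embryonic transcription has gone. In bulk libraries like these, fewer cells with a transcript and less of it per cell cannot be told apart.

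The deposited values are CPM, in which each gene's reads are divided by the library's total and multiplied by a constant, on totals of 7611781 to 15559218 reads. In a single library a count of 0 allows up to 3 reads, or 0.193 to 0.394 CPM, counting error only. Transfer libraries had 13317 ± 508 genes at 1 CPM or more (SD, n = 6) and sham libraries 13555 ± 427 (SD, n = 3; two-sided exact permutation p = 0.476, where the smallest possible is 0.0238). The sham libraries did not lie together: on the first principal component, with 30.5% of the variance, SPN A was at -2.0, among the EPN libraries (-29.4 to 7.3), and SPN B and SPN C were at -50.6 and -84.6. Over the 14 markers of a 2-cell embryo, summed CPM ran from 8681 to 10785 in SPN, from 11587 to 18262 in EPN and from 13960 to 19387 in LPN. Much of this sum was Dppa3, which alone ran from 6599 to 13678 CPM. Markers of other cell types were summed in the same way. Of the cumulus and granulosa cell markers Foxl2 had no read in any library, while Tnfaip6 ran from 2.13 to 23.7 CPM and Star from 0.92 to 5.67 CPM. The summed level of the 10 in the table was 12.4 to 15.0 CPM in SPN, 16.4 to 32.0 in EPN and 12.0 to 23.5 in LPN. Of the sperm markers Prm1 stayed at or under 1.84 CPM and Tnp1 at or under 0.524 CPM in every library. Prm2 ran from 1.27 to 9.27 CPM and Izumo1 from 0 to 12.5 CPM. The sum of the 10 sperm markers, mostly Odf2, was 82.7 to 127 CPM in SPN, 61.1 to 116 in EPN and 50.2 to 70.0 in LPN. Sums of the 6 blood markers were 73.3 to 111, 44.0 to 103 and 26.0 to 38.6 CPM in SPN, EPN and LPN, and those of the 6 fibroblast markers 10.5 to 22.7, 16.7 to 40.8 and 11.6 to 15.6 CPM. Among the blood markers Hba-a1 alone ran from 9.13 to 100 CPM. The 7 oviduct markers, among which Krt7 had no read and Epcam alone ran from 98.0 to 228 CPM, summed to 155 to 197, 203 to 256 and 109 to 248 CPM. Sperm and blood sums were lowest in LPN, and the part of these cells in any result was not tested.

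The comparison of any transfer with sham found 280 of 14876 tested genes past the threshold, 146 higher and 134 lower after transfer. A call is a Benjamini-Hochberg adjusted p under 0.05 in a limma fit of the 3 groups on log2(CPM + 1), in which EPN and LPN weigh equally. The called genes are 1.88% of all tested, the higher ones 0.981% and the lower ones 0.901%. Since a pooled call can come from 1 timing alone, shared differences were counted more strictly: all 6 transfer libraries had to lie on the same side of all 3 sham libraries. That held for 166 called genes, 93 higher and 73 lower, which are called the shared genes below. A shared gene need not pass at each timing taken alone. Against sham, Calhm3 passed at both timings (limma adjusted p = 0.00495 in EPN and 0.000184 in LPN). Asb8 (0.0682 in EPN and 0.00191 in LPN) and Bcl2l10 (0.482 and 0.00145) passed in LPN only. Among all tested genes, called or not, 2.76% had every transfer library above every sham library and 3.27% had every transfer library below. The groups of the other 114 called genes overlapped, and 90 of these 114 no longer overlapped once SPN A was set aside.

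The size of these counts depended on single sham libraries. Without SPN A, limma called 701 genes higher and 1000 lower, and 161 of the 163 shared genes still tested were called. Without SPN B it called 16 higher and 16 lower, and without SPN C a single gene, Calhm3, with 1480 genes at an unadjusted p under 0.05. Dropping a sham library leaves 2 libraries in that group. Counts without each EPN or LPN library lay between 25 and 122 per direction, as the plot of calls with each library left out shows.

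**Figure D1:**
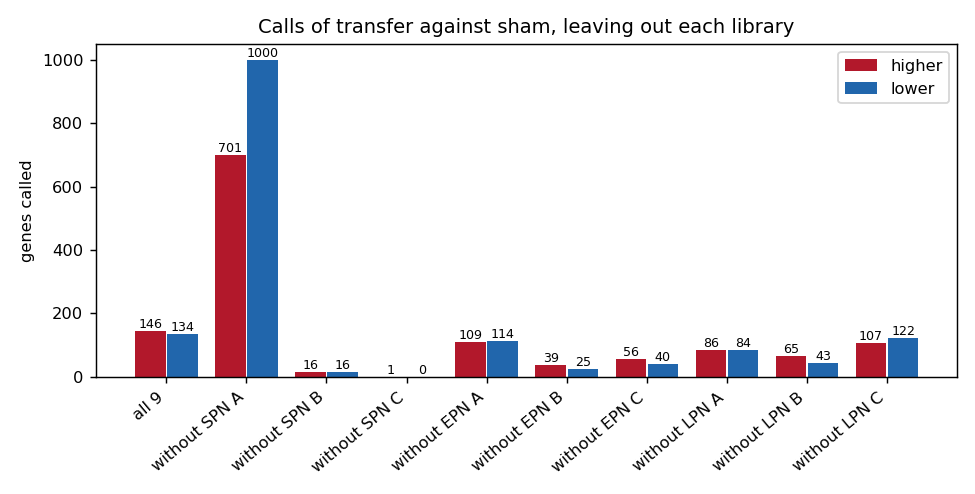
Genes called higher (red) and lower (blue) after transfer than after sham, as numbers of genes on a linear axis, with all 9 libraries and with each library left out in turn. The counts were 701 and 1000 without SPN A, and 1 and 0 without SPN C.

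Most shared genes had the larger difference from sham after later transfer. They were chosen for lying apart from sham at both timings, and the EPN and LPN differences use the same 3 SPN libraries and are therefore given side by side only. On the log2 scale the sizes ran from 0.40 to 3.59 in EPN and from 0.67 to 3.63 in LPN, with medians of 1.17 and 1.62. LPN had the larger difference in 133 of the 166 genes and EPN in 33, and 98 genes differed by at least 1 at both timings. The smaller difference was 73.7% of the larger in the median gene. When LPN was tested directly against EPN, limma called 6 of the 166, and 228 of all 14876 genes (1.53%). These 6, chosen after their values were seen, were the peroxisomal carrier gene Slc25a17 among the higher genes and Bcl2l10, Lef1, Lmo1, Nlrp4f and Pnrc1 among the lower ones.

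**Figure D2:**
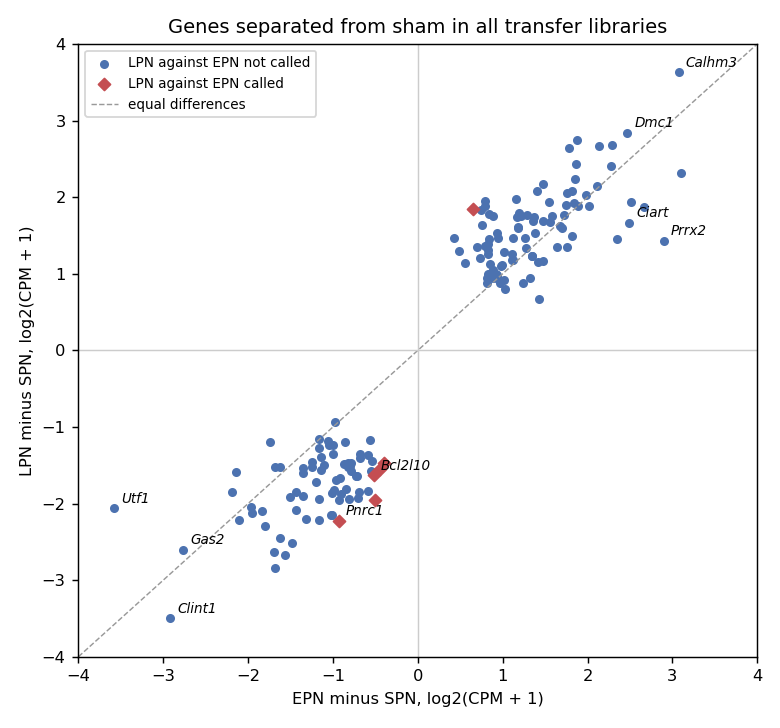
Difference from sham after early transfer (horizontal) and later transfer (vertical), both in log2(CPM + 1), for the 166 shared genes. Each point is a gene, the dashed line marks equal differences and red diamonds mark the 6 genes called between LPN and EPN; 133 of the points lie farther from zero on the LPN axis.

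Calhm3, which encodes a subunit of a voltage-gated ion channel family, had the largest rise of the genes named. It was at 4.8, 31 and 3.41 CPM in SPN A, B and C, at 78.6, 57.1 and 104 CPM in EPN, and at 141, 89.6 and 121 CPM in LPN. Every transfer library lay above every sham library, and SPN B was the highest sham library. The rise was 10.2-fold on the log2(CPM + 1) scale (log2 difference 3.35, SE 0.41, limma adjusted p = 4.77e-05), with 3.07 in EPN and 3.63 in LPN. Calhm3 was called under 20 of 21 alternative settings and lost with edgeR; its log2 difference stayed between 2.81 and 4.24.

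Ciart, a repressor of the circadian transcription loop, rose 4.23-fold (log2 difference 2.08, SE 0.35, limma adjusted p = 0.00242). Its levels were 25.3, 10.6 and 12.6 CPM in SPN A, B and C, 59.6, 100 and 120 CPM in EPN, and 68.8, 28.9 and 62.9 CPM in LPN. The lowest transfer library, LPN B, lay just above the highest sham library, SPN A. Ciart was the circadian gene that passed: of 24 tested clock genes 1 rose and none fell, and the list's median lay 0.37 log2 below that of all genes. Nxf2, a germline member of the RNA export factor family on the X chromosome, rose 5.58-fold (log2 difference 2.48, SE 0.43, limma adjusted p = 0.0031). Nxf2 was at 117, 10 and 18.5 CPM in SPN A, B and C, at 119, 187 and 128 CPM in EPN and at 135, 143 and 340 CPM in LPN. SPN A was level with EPN A while SPN B and SPN C were far below, and the log2 difference was 3.48 without SPN A. Usp17lb, a deubiquitinase gene of a multi-copy family of the 2-cell stage, rose 2.99-fold (log2 difference 1.58, SE 0.28, limma adjusted p = 0.00426). It ran from 289 to 1056 CPM in SPN and from 1367 to 2350 CPM over the 6 transfer libraries, and SPN A was again the highest sham library. Reads of such families can map to several members, so the share of a single member is uncertain.

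The promoters of these 3 genes are shown because the genes were among the higher named genes with the smallest adjusted p and their upstream bases differ plainly in motif content. The 250 bases before the first start site listed by RefSeq (GRCm38.p6, an older build than the authors' GRCm39) are given 5′ to 3′ on the gene's strand, with capitals for matches to 6 motifs searched on both strands. These were the E-box CACGTG, the CCAAT box CCAAT, the GC box GGGCGG, the TATA box TATAAA, the cAMP response element TGACGTCA and the Otx/Obox homeodomain site GGATTA. The E-box and the cAMP response element read the same on both strands and were counted a single time.
Ciart (chr3:95882229-95882478, minus strand): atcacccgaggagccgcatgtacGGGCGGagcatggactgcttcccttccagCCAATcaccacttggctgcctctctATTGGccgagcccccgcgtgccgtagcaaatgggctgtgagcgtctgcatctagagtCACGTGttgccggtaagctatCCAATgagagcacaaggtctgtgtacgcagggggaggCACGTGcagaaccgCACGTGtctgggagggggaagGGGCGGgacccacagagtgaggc
Nxf2 (chrX:134964755-134965004, minus strand): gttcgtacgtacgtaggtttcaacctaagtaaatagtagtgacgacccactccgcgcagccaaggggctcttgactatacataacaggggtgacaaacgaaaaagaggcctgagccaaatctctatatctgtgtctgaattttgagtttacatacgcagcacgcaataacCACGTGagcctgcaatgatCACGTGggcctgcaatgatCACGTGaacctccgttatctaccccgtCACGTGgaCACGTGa
Usp17lb (chr7:104842584-104842833, minus strand): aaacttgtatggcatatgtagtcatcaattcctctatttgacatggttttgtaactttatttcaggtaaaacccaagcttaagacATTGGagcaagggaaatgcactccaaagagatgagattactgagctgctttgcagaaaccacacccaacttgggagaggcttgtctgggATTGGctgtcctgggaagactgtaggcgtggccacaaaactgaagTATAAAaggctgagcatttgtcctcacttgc
Ciart had 3 E-boxes, 3 CCAAT boxes and 2 GC boxes, Nxf2 had 5 E-boxes, and Usp17lb had a TATA box 31 bases before the start and 2 CCAAT boxes. E-boxes are the letters that CLOCK and BMAL1, the activators of the circadian loop, and other basic helix-loop-helix factors bind. Of the 11349 tested genes with a promoter entry 8.19% held at least 1 E-box, and 16 (0.141%) held 3 or more, Ciart and Nxf2 among them. Since the 3 promoters shown were picked in part for their motifs, this share says nothing of a link between E-boxes and transfer. The promoters of Ctsc, Asb8 and Pnrc1, searched in the same way and not shown, held no E-box. Over the shared genes with an entry, 8 of 68 higher genes (11.8%) and 3 of 60 lower genes (5%) held an E-box. A CCAAT box was found in 47.1% of the higher, 33.3% of the lower and 37.7% of all promoters, a TATA box in 10.3%, 5% and 7.58%, and a GC box in 54.4%, 48.3% and 54.1%. The cAMP response element was found in 1.47%, 3.33% and 2.6%, and the homeodomain site in 5.88%, 5% and 5.59%. These are matches of letters, with no measurement of binding.

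Dmc1, the recombinase of meiotic prophase, was at 3.22, 1.95 and 0 CPM in SPN A, B and C, at 10.6, 17.8 and 8.69 CPM in EPN and at 16, 29 and 7.96 CPM in LPN (log2 difference 2.66, SE 0.55, limma adjusted p = 0.0117). The highest sham library of Dmc1 lay well under its lowest transfer library. Of 95 tested DNA damage response and repair genes 2 rose, Dmc1 among them, and none fell. The list's median lay 0.20 log2 above that of all genes, at 0.01 in EPN and 0.41 in LPN.

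Prdm14, a PR-domain regulator of germ cells and naive pluripotency, was at 6.09, 12.1 and 11.5 CPM in SPN A, B and C, at 15.5, 53.5 and 55.9 CPM in EPN and at 36.1, 41.1 and 54.5 CPM in LPN (log2 difference 1.95, SE 0.40, limma adjusted p = 0.0115). EPN A was low among the transfer libraries and still above all 3 sham libraries. Prrx2, a paired-related homeobox gene, was at or under 1.33 CPM in SPN, at 3.44 to 23.6 CPM in EPN and at 1.84 to 6.2 CPM in LPN (adjusted p = 0.0468). Its sham and LPN ranges nearly touched, and its log2 difference was 2.90 in EPN and 1.43 in LPN. Fgf7, a fibroblast growth factor, ran from 0.437 to 3.87 CPM in SPN, from 4.12 to 12.5 CPM in EPN and from 11 to 22.2 CPM in LPN (adjusted p = 0.033). Fthl17b, a ferritin heavy chain-like gene of the X chromosome, ran from 0 to 9.03 CPM in SPN, 21 to 31.2 CPM in EPN and 10.5 to 23.9 CPM in LPN (adjusted p = 0.0315). The zinc finger genes Zfp866 and Zfp938, Apol7e of the apolipoprotein L family, the IQ-motif gene Iqca1l and the 2-cell gene Eif1ad2 were also among the 14 largest rises, with log2 differences from 1.91 (Eif1ad2) to 2.31 (Iqca1l; adjusted p = 0.00998 to 0.0417). In each of these 14 genes every transfer library lay above every sham library, which is how they were chosen.

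**Figure D3:**
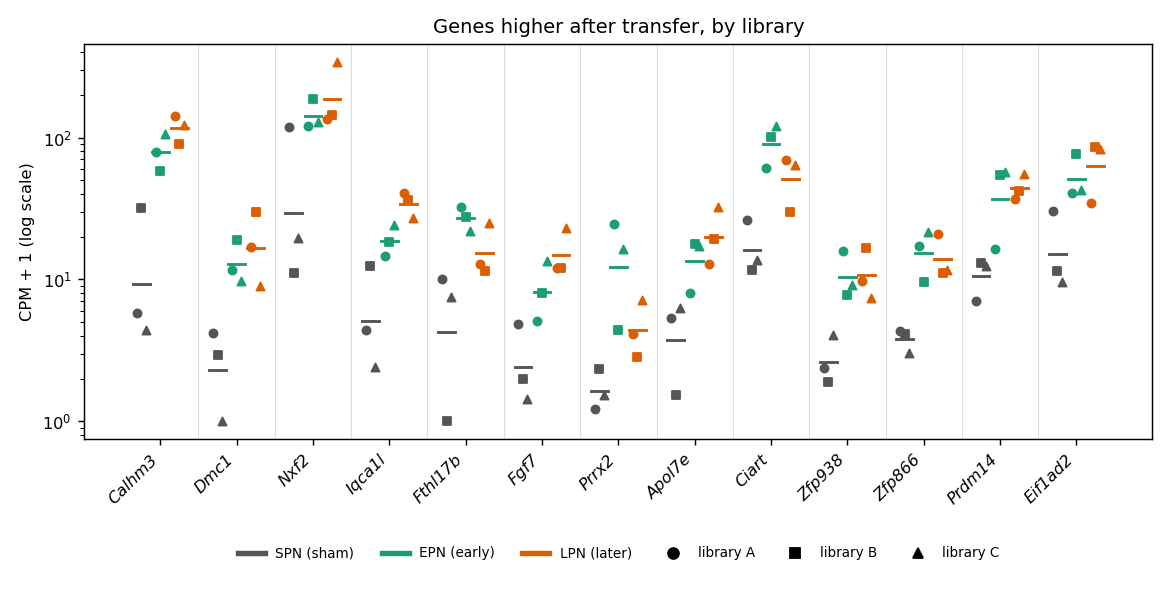
CPM + 1 on a log axis in each of the 9 libraries for 13 of the 14 genes with the largest rise among the named shared genes; grey, green and orange are SPN, EPN and LPN, the symbols are libraries A, B and C and the bars are the group means on the log scale. All 6 transfer points lie above the 3 sham points, narrowly for Nxf2 and Ciart.

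Clint1, an epsin-related adaptor that links clathrin to the trans-Golgi network and endosomes, had the largest fall of the named genes. It was at 15.5, 181 and 173 CPM in SPN A, B and C, at 10.1, 6.8 and 13 CPM in EPN and at 5.33, 4.99 and 8.63 CPM in LPN. SPN B and SPN C were high, while SPN A was only just above EPN C. Clint1 fell 9.22-fold (log2 difference -3.21, SE 0.53, limma adjusted p = 0.00189), with log2 differences of -2.92 in EPN, -3.49 in LPN and -4.35 when SPN A was left out. Of 51 tested clathrin coat and adaptor genes it was the single one called.

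Asb8, which encodes a SOCS-box substrate receptor of a ubiquitin ligase, fell 3.27-fold with little spread among libraries. It was at 96.3, 129 and 138 CPM in SPN A, B and C, at 43.4, 45.9 and 35.9 CPM in EPN and at 36.4, 23.3 and 35 CPM in LPN (log2 difference -1.71, SE 0.29, limma adjusted p = 0.00284). Every sham library was at least at the level of 96.3 CPM and no transfer library passed 45.9 CPM. Cdo1, the cysteine dioxygenase that starts cysteine breakdown, was at 126, 73.6 and 163 CPM in SPN, at 48.9, 39.1 and 48.5 CPM in EPN and at 30.1, 18.1 and 26.1 CPM in LPN (log2 difference -1.76, SE 0.31, adjusted p = 0.00385). Dtx2, a deltex ubiquitin ligase of the Notch pathway, ran from 71.1 to 131 CPM in SPN, from 37.3 to 52.9 CPM in EPN and from 15.9 to 27.8 CPM in LPN (log2 difference -1.58, SE 0.31, adjusted p = 0.00951). Pnrc1, a proline-rich nuclear receptor coactivator, was at 118, 128 and 211 CPM in SPN, at 91.6, 61.8 and 79.5 CPM in EPN and at 28.8, 30 and 33.6 CPM in LPN (log2 difference -1.58, SE 0.28, adjusted p = 0.00426). Pnrc1 fell by 0.93 in EPN and by 2.22 in LPN, and the timings differed from each other (adjusted p = 0.0393). Clint1, Asb8, Cdo1, Dtx2 and Pnrc1 were also called by edgeR on the recovered reads, which called 10 genes in all, none of them higher.

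Ccng2, the unconventional cyclin G2 linked to cell cycle arrest, was at 48.1, 57.5 and 51.5 CPM in SPN, at 30.4, 18.7 and 27.8 CPM in EPN and at 14.9, 14.7 and 5.95 CPM in LPN (log2 difference -1.59, SE 0.37, limma adjusted p = 0.0256). Gas2, a growth arrest gene that binds actin and microtubules, was at 3.87, 24 and 23.8 CPM in SPN and between 0 and 3.35 CPM in the transfer libraries (adjusted p = 0.0256). SPN A was again close to the transfer libraries in Gas2 and not in Ccng2. Ptpro, a receptor tyrosine phosphatase, ran from 38.1 to 44.4 CPM in SPN and from 4.19 to 20.4 CPM after transfer (adjusted p = 0.0369). Adgra3, an adhesion G protein-coupled receptor, ran from 23.5 to 35.4 CPM in SPN, 11 to 15.5 CPM in EPN and 3.27 to 7.62 CPM in LPN (adjusted p = 0.0359). The cilium-associated gene Cfap300, the ARF exchange factor gene Iqsec1, Spg21, which encodes maspardin, and Tll1, a tolloid-like protease, fell by 1.63 (Cfap300) to 2.05 (Tll1) on the log2 scale (adjusted p = 0.0315 to 0.0426). Cfap300 was highest in SPN A (88.8 CPM, with 40 and 39.8 CPM in SPN B and C), and its call ended without SPN A (log2 difference -1.25, adjusted p = 0.0632, in a range of 0.012 to 0.145 over the alternatives).

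**Figure D4:**
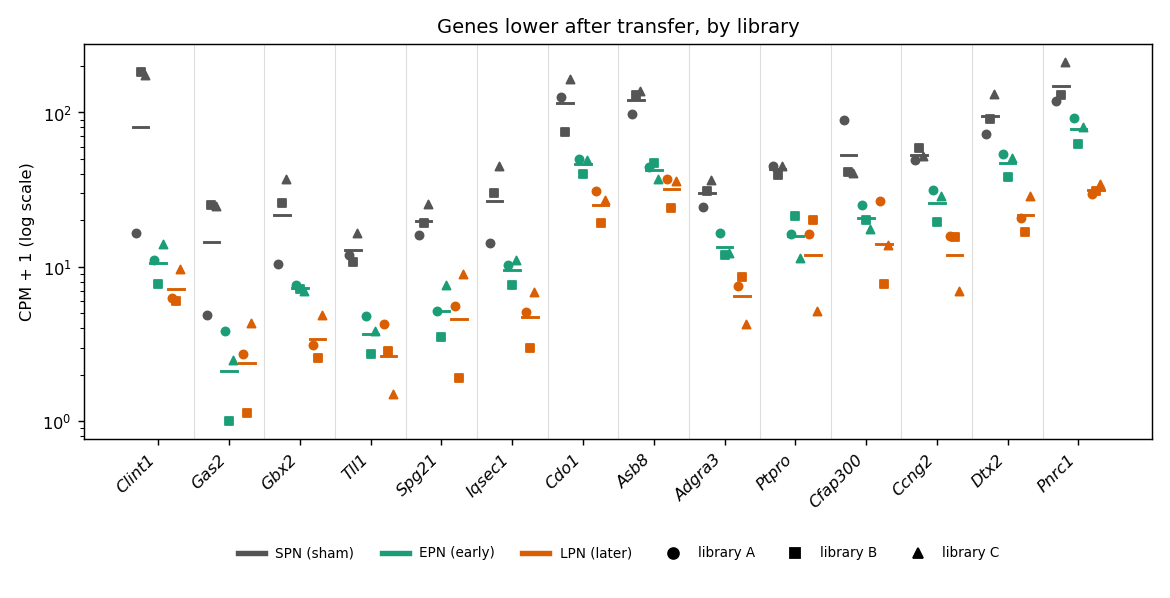
CPM + 1 on a log axis in each of the 9 libraries for the 14 genes with the largest fall among the named shared genes; grey, green and orange are SPN, EPN and LPN, the symbols are libraries A, B and C and the bars are the group means on the log scale. All 6 transfer points lie below the 3 sham points, and SPN A lies close to them for Clint1 and Gas2.

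Gene groups are described by their counts and by their median difference, set against all tested genes. The median of all genes was itself -0.12 log2 for transfer against sham (-0.07 in EPN, -0.17 in LPN), 43.3% of genes had a positive difference, and list medians are given relative to it. The background for members is 0.981% called higher and 0.901% called lower, and 20% of all genes had an unadjusted p under 0.05. Other fits have their own background, against which their counts of members are to be read. Without SPN A 4.80% of tested genes were called higher and 6.85% lower, and without SPN B 0.110% in each direction. DESeq2 called 2.35% higher and 2.26% lower. An unadjusted p under 0.05 was found for 14.5% of genes without SPN B, 10.2% without SPN C and 16.9% with edgeR.

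The 2-cell-specific genes stood highest. Of 40 tested members 11 rose, none fell and 29 did not pass, and 34 had a positive difference. Their median lay 0.95 log2 above that of all genes, at 0.74 in EPN and 1.16 in LPN, and between 0.71 and 1.24 over all alternative settings. Those that rose were Usp17lb, Zfp352, the BTB-domain genes Tdpoz3, Tdpoz4 and Tdpoz8, and 6 Eif1ad genes, which resemble the translation initiation factor eIF1A. Eif1ad7 was at 253, 265 and 195 CPM in SPN A, B and C, at 498, 747 and 441 CPM in EPN and at 563, 937 and 973 CPM in LPN (log2 difference 1.49, SE 0.25, limma adjusted p = 0.00189). Tdpoz8 ran from 33 to 110 CPM in SPN, from 191 to 259 CPM in EPN and from 124 to 291 CPM in LPN (adjusted p = 0.0059). Zfp352, a zinc finger gene of retrotransposon origin, was at 559, 288 and 291 CPM in SPN, at 603 to 708 CPM in EPN and at 643 to 1082 CPM in LPN (adjusted p = 0.0334). SPN A was the highest sham library of Zfp352 and Tdpoz8, below all transfer libraries. Zscan4d, the best known gene of this stage, did not pass (185 to 546 CPM in SPN, 355 to 986 CPM in EPN, 493 to 925 CPM in LPN; adjusted p = 0.106), and its groups overlapped. Without SPN A 21 members were called higher and 2 lower, without SPN B 2 higher, and without SPN C 0 by limma, with 16 at an unadjusted p under 0.05. DESeq2 called 12 higher and edgeR 0 (22 at an unadjusted p under 0.05). The members of each family share sequence, so they are not independent of each other.

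Of 117 tested nucleolus and ribosome assembly factors 5 rose, none fell and 112 did not pass, and 89 had a positive difference. The list's median lay 0.39 log2 above that of all genes, at 0.26 in EPN and 0.54 in LPN. Ltv1, an export and maturation factor of the small subunit, was at 223, 119 and 96.1 CPM in SPN A, B and C, at 255, 360 and 290 CPM in EPN and at 283, 272 and 388 CPM in LPN (log2 difference 1.15, SE 0.26, limma adjusted p = 0.0238). Dcaf13 and Utp23, both of the small-subunit processome, Riok2, a kinase of late 40S maturation, and Dkc1, the pseudouridine synthase of snoRNA complexes, rose as well, by 1.08, 0.96, 1.07 and 0.85 log2. Dcaf13 and Riok2 overlapped between the groups: SPN A had 367 CPM of Riok2 and EPN A 271 CPM, and SPN B had 238 CPM of Dcaf13 and EPN A 223 CPM. Without SPN A 24 members were called higher and 0 lower, and without SPN B or SPN C limma called 0, with 22 and 11 at an unadjusted p under 0.05, the latter close to the 10.2% of all genes in that fit. DESeq2 called 10 higher and edgeR 0 (25 at an unadjusted p under 0.05). Of the 91 tested proteins of the cytosolic ribosome itself limma called 0, with 10 at an unadjusted p under 0.05, DESeq2 called 4 higher and edgeR 0, and limma without SPN A called 5 higher and 5 lower. Rpl29, with the smallest p among them, was at 26.7 to 68.7 CPM in SPN and at 50.8 to 122 CPM after transfer (adjusted p = 0.0686).

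Among 60 translation factors Eif3a, the largest subunit of eIF3, and Eif5a2 rose, from 264 to 317 CPM in SPN to 462 to 729 CPM after transfer and from 14 to 16 CPM to 30.4 to 46 CPM (limma adjusted p = 0.03 and 0.0402). Of 115 splicing factors Srsf5, Cwc22 and Hnrnph2 rose. Srsf5, a serine- and arginine-rich factor, was at 772, 428 and 264 CPM in SPN and at 838 to 1332 CPM after transfer (adjusted p = 0.00951). Hnrnph2 overlapped between the groups: SPN A had 80.8 CPM and LPN A 66.5 CPM. Of 70 nuclear transport genes Nxf2 and the importin gene Kpna2 rose, and Kpna2 was at 2546 CPM in SPN A, close to 2660 CPM in EPN A, with 1162 and 931 CPM in SPN B and C. Of 43 lysosomal genes 2 rose, Ctsc among them. Ctsc, the dipeptidyl peptidase cathepsin C, was at 269, 144 and 68.7 CPM in SPN and at 401 to 547 CPM after transfer (log2 difference 1.75, SE 0.29, adjusted p = 0.00189), with 1.72 in EPN and 1.77 in LPN. Supt16, a subunit of the histone chaperone FACT, rose from 11.3 to 31.7 CPM to 49.4 to 73.7 CPM (adjusted p = 0.00928), as the single call among 43 histone chaperone and replacement histone genes. Orc3, of the origin recognition complex, rose as 1 of 68 replication genes, and Pcna, the replication clamp, did not pass (186 to 251 CPM in SPN, 209 to 314 CPM after transfer; adjusted p = 0.602).

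A few mitotic, mitochondrial and proteasome genes also rose, where 0.981% of all tested genes were called higher and 0.901% lower. In several of these genes LPN was higher than EPN without a call between the timings. Of 106 cyclin, spindle, kinetochore and anaphase-promoting complex genes 4 rose (Ccnb1, Cenpm, Prc1 and Smc1a) and none fell. Cenpm, a kinetochore protein, was at 12.4 to 20.4 CPM in SPN, 24.8 to 35.8 CPM in EPN and 62.3 to 70.3 CPM in LPN (limma adjusted p = 0.0313). Prc1, of the central spindle, was at 703 CPM in SPN A, above every transfer library except LPN A (855 CPM). Smc1a, of cohesin, ran from 48.3 to 57.5 CPM in SPN, 82.7 to 125 CPM in EPN and 112 to 114 CPM in LPN (adjusted p = 0.0363). Mrps10 and Mrps18b rose among 77 mitochondrial ribosomal proteins, and Uqcrc1, a core protein of respiratory complex III, among 83 nuclear genes of the respiratory chain. The single call among these 83 is near the share of all genes. Mrps10 overlapped between the groups: SPN B had 21.4 CPM and EPN B 17.7 CPM. Uqcrc1 was at 19.2 to 26.4 CPM in SPN and at 50.7 to 79.8 CPM after transfer (adjusted p = 0.0304), and its EPN and LPN ranges overlapped. Of the 13 mitochondrial genome transcripts 0 were called by limma, edgeR or DESeq2, and 3 had an unadjusted p under 0.05 with limma. Without SPN A limma called 4 of them lower. ND6, with the smallest p, was at 105 to 272 CPM in SPN and at 65.7 to 175 CPM after transfer (adjusted p = 0.124). Of 47 proteasome genes the lid subunit Psmd14 rose and the lid subunit Psmd3 fell. Psmd14 was at 106 to 154 CPM in SPN, at 142 to 246 CPM in EPN and at 307 to 437 CPM in LPN (adjusted p = 0.0269), and EPN overlapped SPN. Psmd3 was at 69.7 to 100 CPM in SPN, 41.4 to 62.6 CPM in EPN and 20.9 to 23.8 CPM in LPN (adjusted p = 0.033). Without SPN A limma called 11 proteasome genes higher and 2 lower, and DESeq2 on all libraries called 10 higher and 1 lower; for the mitotic list the count without SPN A was 20 higher and 4 lower, where 4.80% and 6.85% of all genes were called.

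Oocyte-derived transcripts stood on the lower side. Of 86 tested members 6 fell, none rose and 80 did not pass, and 20 had a positive difference. The list's median lay 0.28 log2 below that of all genes, at -0.07 in EPN and -0.49 in LPN. Oosp3, an oocyte-secreted protein, fell to like levels at both timings: it was at 333, 351 and 361 CPM in SPN A, B and C, at 164, 164 and 146 CPM in EPN and at 174, 151 and 88.5 CPM in LPN (log2 difference -1.26, SE 0.25, limma adjusted p = 0.00951). Its 3 sham libraries were close together, SPN A included. Bcl2l10, a BCL2 relative abundant in oocytes, was at 1225 to 1972 CPM in SPN, 983 to 1151 CPM in EPN and 395 to 676 CPM in LPN (log2 difference -1.07, SE 0.24, adjusted p = 0.0183), and LPN was below EPN (adjusted p = 0.0389). The other falls were the deubiquitinase gene Uchl1, Nlrp4f of the NLR family, Ybx2, which packages stored mRNA, and the histone reader gene Spin1. Gdf9, the oocyte growth factor, did not pass (adjusted p = 0.058; 124 to 202 CPM in SPN, 81.2 to 135 CPM in EPN, 51.6 to 70.7 CPM in LPN). Zp3, of the zona pellucida, did not pass either (69.4 to 105 CPM in SPN, 93.3 to 230 CPM after transfer; adjusted p = 0.114). Without SPN A 14 oocyte transcripts were called lower and 1 higher, without SPN B 1 lower, and without SPN C 0 by limma, with 17 at an unadjusted p under 0.05. DESeq2 called 10 lower and 1 higher, and edgeR 0 (20 at an unadjusted p under 0.05). With TMM scaling limma called 1 oocyte transcript lower and 0 higher. In that fit 48 of all 14876 tested genes were called lower, against 134 on the deposited CPM. Of 49 deadenylation, decapping and mRNA decay factors the decapping gene Dcp1b alone was called: it was at 2.94 to 4.9 CPM in SPN and at or under 0.922 CPM after transfer (adjusted p = 0.0489). These levels are low, and the call held under only 2 of the 16 alternative settings in which Dcp1b was tested. DESeq2 called 5 members of that list lower, and limma without SPN A called 14 lower and 1 higher, where the shares of all genes called lower were 2.26% and 6.85%.

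Preimplantation transcription factors held 4 falls and 1 rise, Prdm14, among 60 tested. Utf1, a chromatin-associated stem cell factor, was at 6.16, 11.3 and 18.7 CPM in SPN A, B and C, had no read in any EPN library, and was at 0, 4.6 and 3.27 CPM in LPN (limma adjusted p = 0.0125). Gbx2, a homeobox gene of the ground state, was at 9.46, 24.8 and 36 CPM in SPN, at 5.99 to 6.65 CPM in EPN and at 1.58 to 3.85 CPM in LPN (log2 difference -2.11, SE 0.51, adjusted p = 0.0315). The Kruppel-like factor genes Klf4 and Klf5 fell by 1.32 and 1.18 on the log2 scale (adjusted p = 0.0363 and 0.033). Pou5f1, the pluripotency factor OCT4, was not shared between the timings: it was at 21 to 33.9 CPM in SPN, 31.1 to 57.9 CPM in EPN and 8.88 to 9.83 CPM in LPN, and the pooled difference did not pass (adjusted p = 0.602). The markers of morula and blastocyst were on the lower side too: 0 of 12 tested had a positive difference, and their summed CPM was 210 to 291 in SPN, 178 to 233 in EPN and 109 to 162 in LPN. Of these markers Krt8 was called lower (adjusted p = 0.0487), a call that held under 5 of the 20 alternative settings in which it was tested. The median of the transcription factor list lay 0.21 log2 below that of all genes, at -0.01 in EPN and -0.46 in LPN. The summed CPM of this list did not fall: it ran from 11417 to 13963 in SPN, 11990 to 17075 in EPN and 13913 to 18436 in LPN. Without SPN A 3 of its members were called higher, near the 4.80% of all genes, and 10 lower, where 6.85% of all genes were.

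Genes of hypoxia response and glucose use went both ways. Vegfa, the vascular growth factor, was at 11.9, 39.1 and 51.4 CPM in SPN A, B and C, at 7.3, 7.42 and 18.1 CPM in EPN and at 1.74, 0 and 0 CPM in LPN (limma adjusted p = 0.00632); SPN A lay below EPN C. Pdk3, a kinase that shuts pyruvate dehydrogenase, fell from 78.8 to 129 CPM in SPN to 25 to 56.4 CPM after transfer (adjusted p = 0.0367). Pdha1, a subunit of pyruvate dehydrogenase itself, rose by 0.96 log2 (adjusted p = 0.0485), as did the mitophagy receptor gene Bnip3 (adjusted p = 0.0355). Bnip3 overlapped between the groups: SPN A had 277 CPM and EPN C 274 CPM. The ephrin ligand gene Efna1 rose (25 to 79.2 CPM in SPN, 173 to 206 CPM in EPN, 76.9 to 138 CPM in LPN; adjusted p = 0.00645), with SPN A above LPN A. Of the PRAME-like and Oog genes, a multi-copy family expressed in oocytes and early embryos, Pramel32, Pramel25 and Oog1 fell and Pramel6 rose among 44 tested. With TMM scaling limma called 0 of these 44. Oog1 overlapped between the groups: SPN A had 377 CPM and EPN B 390 CPM.

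Stress, death and chromatin lists held at most 1 call in each direction. Of 33 p53 targets Ccng2 fell and none rose, and Cdkn1a, which encodes the p21 inhibitor, was at 34.6 to 121 CPM in SPN, 66 to 251 CPM in EPN and 41.8 to 62.7 CPM in LPN (limma adjusted p = 0.798). Of 40 genes of the unfolded protein and integrated stress response Ddit3, which encodes CHOP, rose: it was at 80.3 to 108 CPM in SPN, 117 to 143 CPM in EPN and 211 to 357 CPM in LPN (adjusted p = 0.0439). Of 34 apoptosis genes Aifm1, the mitochondrial apoptosis-inducing factor, rose and Bcl2l10 fell. Vmp1, of autophagosome formation, rose as 1 of 45 autophagy genes (adjusted p = 0.0411). In the lists of 61 chaperones, 46 antioxidant genes, 25 RNA sensing and interferon genes, 103 histone- and DNA-modifying enzymes and 46 imprinted genes limma called 0, with 14, 14, 3, 23 and 8 at an unadjusted p under 0.05, a threshold that 20% of all genes passed. In the same order DESeq2 called 5, 2, 0, 2 and 1, and edgeR called 0 in each. Without SPN A limma called 7 higher and 5 lower, 1 higher and 3 lower, 0, 5 higher and 9 lower, and 3 lower. The smallest adjusted p-values in these 5 lists were 0.0598 for Ptges3, 0.0708 for Txn2, 0.178 for Ddx58, 0.0748 for Kdm4a and 0.0942 for Blcap. Relative medians changed sign under some settings for p53 targets, mitochondrial transcripts, respiratory chain genes, cytosolic ribosomal proteins, and the calcium, apoptosis, ephrin, interferon, autophagy and nuclear transport lists; for all other lists they kept their sign.

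**Figure D5:**
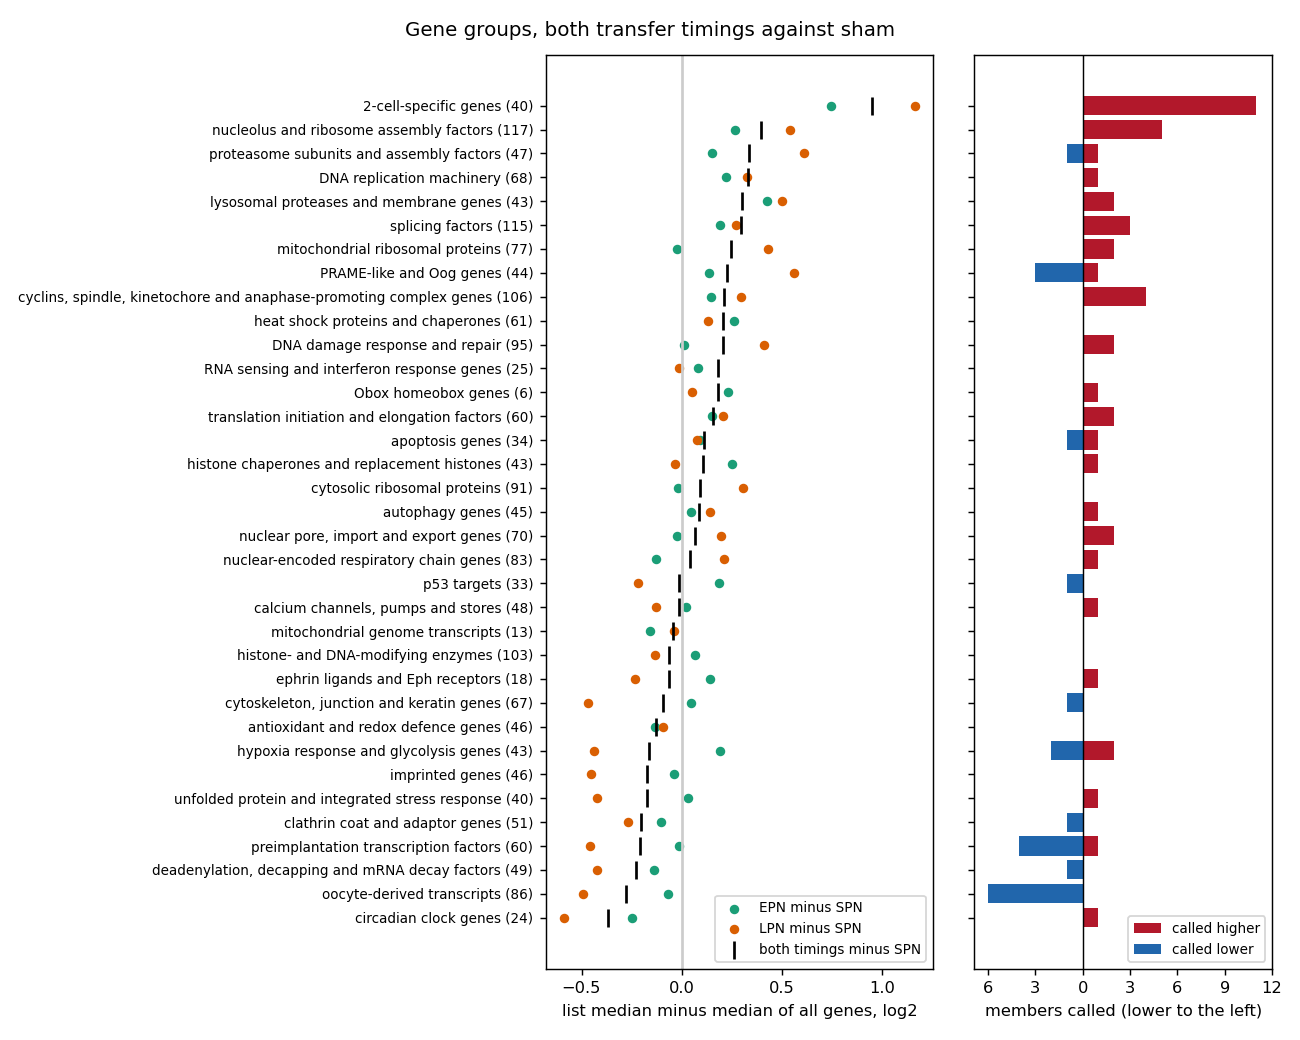
Left, the median log2 difference from sham of each gene group minus that of all tested genes, for EPN (green), LPN (orange) and both timings (black bar); right, the number of members called higher (red) or lower (blue), with tested members in brackets. The 2-cell-specific genes lie farthest to the right (0.95, with 11 of 40 higher), and the oocyte-derived transcripts have the most members lower (6 of 86). Like shares were lower among preimplantation transcription factors (4 of 60) and PRAME-like and Oog genes (3 of 44).

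The balance of higher and lower calls rested on the scaling, and the number of calls on the test. Of the calls 52.1% were higher on the deposited CPM, 70.7% with median-of-ratios scaling, 75.1% with TMM scaling and 60.4% with quantile normalization. On the recovered reads edgeR called 0 genes higher and 10 lower (2518 at an unadjusted p under 0.05), and DESeq2 called 349 higher and 336 lower.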

How the data were processed

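Poly(A) RNA was measured in 9 libraries of 3 pooled embryos each, made with the Smart-seq2 v4 and Nextera XT kits and read as 150-bp paired ends, per the labels' protocols. The submitters' processing notes name GRCm39 and, as tools, HISAT2 2.2.1, Trim Galore 0.6.7, edgeR and R 3.3.3, without a read counter or an annotation. The values the authors deposited are CPM for 19359 genes, with 1 column per library, named as the sample titles. In each library 100% of values were whole multiples of 1 read (tolerance 0.01), which gave back the reads and totals; reads outside the table, 3.66% to 5.68% of a total, were not analysed here.

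Testing required 1 CPM or more in 3 or more of the 9 libraries. Values were log2(CPM + 1), which understates the change of low genes, with the deposited scaling kept. One limma 3.58.1 model (R 4.3.3; empirical Bayes with a trend, prior degrees of freedom 25.9 beside 6 residual) gave the two-sided contrast of the mean of EPN and LPN against SPN, each timing against SPN, and LPN against EPN, adjusted by the Benjamini-Hochberg method over all tested genes. Each SE is that of the contrast. Library measures were compared by exact permutation (84 arrangements, SciPy 1.17.1). The edgeR 4.0.16 and DESeq2 1.42.0 tests ran on the recovered reads. The pipeline was tested on simulated data.

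The groups, the gene lists and the rules were chosen with earlier results of these data known. Named genes are, among shared genes averaging 5 CPM or more under a symbol that is no predicted or clone name, the 14 with the largest difference each way. From each list up to 3 called members with the smallest adjusted p were added, or 1 by smallest p where none was called, with Zscan4d, Zfp352, Gdf9, Zp3, Cdkn1a, Pcna, Npm1 and Pou5f1. Other called list members (Ccnb1, Dkc1, Utp23, Klf4, Klf5, Pdha1, Pramel6, Nlrp4f, Ybx2, Spin1, Tdpoz3 and Tdpoz4) were named after their values were seen. Results of a few genes that these rules take in are not reported here. Symbols are as deposited, and no gene coordinates are given beyond the RefSeq promoter windows, matched by symbol for 68 of 93 higher and 60 of 73 lower shared genes. Identical values throughout the 9 libraries occurred in 67 sets of tested genes (136 genes), of which 0 were called. The alternatives were other pseudocounts, filters, scalings, fits and tools, and each library left out.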

Additional observations from a re-analysis of the deposited data

Results flagged for a closer look

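Of 84 genes taken by the naming rule, 6 had a library apart from the other 5 transfer libraries by Dixon's criterion. Chance meets that criterion in about 1 in 20 groups drawn from a single normal population. The transfer libraries hold both timings and most of the genes were chosen by their calls, so that rate may not apply here, and chance was not tested. LPN C was high for the 2-cell genes Usp17lb (2350 CPM) and Zfp352 (1082 CPM) and low for the oocyte gene Oosp3 (88.5 CPM). EPN A was low for Prdm14 (15.5 CPM) and the importin gene Kpna2 (2660 CPM), and EPN B was low for the cohesin gene Smc1a (82.7 CPM).

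In 4 named genes the timings differed from each other in the limma test of LPN against EPN. The log2 difference was -1.29 for Pnrc1, -2.98 for Vegfa, -1.11 for Bcl2l10 and -2.15 for Pou5f1, with adjusted p = 0.0393, 0.0237, 0.0389 and 0.0149. Of these Pnrc1 and Bcl2l10 lay below every sham library at both timings.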

How the results depend on the processing

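Counts are given as higher, lower and shared, against 146, 134 and 166. They were 52, 30 and 65 with a pseudocount of 0.1 CPM, 1, 3 and 4 with no filter on low values, 26, 16 and 30 with a fit of 2 groups, 587, 795 and 411 with array quality weights, 0, 10 and 7 with edgeR, and 349, 336 and 348 with DESeq2. Lower calls moved to 54 with median-of-ratios and 48 with TMM scaling, where the median of all genes was -0.02 and 0.00 log2. Leaving out each library gave 1 to 701 higher, 0 to 1000 lower and 1 to 1518 shared calls; the ends come from SPN C and SPN A. Whether letters A, B and C pair the libraries was not settled by their values. Deviations from the group means correlated at -0.024 to 0.092 over 9 same-letter pairs (0 over 0.1). Between libraries of different letters the correlations ran from -0.1 to 0.096. By these correlations 3 of 9 libraries were closest to their own letter in both other groups. A replicate block gave 219 higher, 207 lower and 219 shared calls. A pseudocount of 0.5 CPM, a mean of at least 5 CPM and quantile normalization stayed within 1.5 times. For the 84 genes taken by the naming rule, 1755 values under the alternatives were compared: 1147 kept direction and side of the threshold, 582 lost the call, 24 gained it and 2 reversed, both of Cdkn1a (-0.31 without SPN B and -0.02 without EPN A; 0.58 without SPN C and 0.20 with all libraries). The kept values include those of genes that were not called with all libraries and stayed so. Single called genes varied widely: of 21 settings, Asb8 was called under 20, Prrx2 under 9 and Spg21 under 7. Low genes are limited by depth: 3 reads are 0.394 CPM in LPN B. The causes of these changes were not tested.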

Other observations

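Values in this paragraph were looked at after the shared genes were known, and carry no test. Of the 68 higher shared genes with a RefSeq promoter entry 10 (14.7%) lie on the X chromosome, as do 2 of 60 lower ones (3.33%) and 4.17% of the 11349 tested genes with an entry. The 10 are Nxf2, Pdha1, Dkc1, Aifm1, Smc1a, Fmr1nb, Fthl17b, Fthl17f, Ctag2l1 and 4933428M09Rik, and the lower ones are Pdk3 and Magea10. As a measure of the sex of the pooled embryos, the summed CPM of 5 Y-linked genes (Ddx3y, Eif2s3y, Kdm5d, Usp9y and Uty) was 49.9, 117 and 43.5 in SPN A, B and C, 0.0723, 102 and 51.8 in EPN, and 53.4, 139 and 162 in LPN. Xist was at 24.6 CPM in EPN A and at or under 7.42 CPM in every other library. EPN A thus stood apart in both measures, and the sham range lay inside that of the transfer libraries for the Y-linked sum.

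Genes with a Zfp symbol, mostly C2H2 zinc finger genes, had 15 of 333 tested members called higher by limma and 0 lower, where 0.981% of all tested genes were called higher and 0.901% lower. Of the 333, 185 had a positive difference, with a median 0.23 log2 over the all-gene median, and 11 of the 15 had every transfer library above every sham library. Beside Zfp352, Zfp866 and Zfp938 they included Zfp146, Zfp808 and Zfp952, with log2 differences of 2.40, 1.96 and 1.64. Zfp809, which binds retroviral primer sites, rose by 1.31.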
